A study of Mus musculus with 3 samples.

Results

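A list of 10 genes of the cytotoxic granule and effector programme of lymphocytes was followed by symbol: Gzma, Gzmb, Gzmk, Gzmm, Prf1, Nkg7, Ifng, Fasl, Xcl1 and Eomes, 10 of the 31053 features listed in the count matrices. All 10 symbols were found, and their counts were read in natural killer (NK) cells and in CD8, CD4 and gamma-delta T cells of 3 libraries. The libraries were 10x 3' v3 single-cell RNA libraries of stromal/vascular cells from the inguinal adipose tissue of mice, a subcutaneous white fat depot, after removal of dead cells and red blood cells. Each library was the 1 sample of its genotype: TERT +/+ (the wild type), Pdgfra-Cre; TERT fl/fl (the Pdgfra-Cre library) or Pdgfrb-Cre; TERT fl/fl (the Pdgfrb-Cre library). Tert codes for telomerase's reverse transcriptase. Both Cre drivers act in cells that use the promoter of a platelet-derived growth factor receptor gene, which are mainly mesenchymal cells. The 2 Cre libraries share the floxed allele and a Cre transgene, the wild-type library has neither, and its title carries the unexplained abbreviation PBS. The labels give no age, sex or strain. Tert itself had 14, 7 and 10 UMIs in 2668, 1409 and 3903 kept cells (wild type, Pdgfra-Cre, Pdgfrb-Cre), too few to check the deletion, and a 3' count need not lie in the deleted part. The stromal transcript Dcn was found in 14.4%, 65.6% and 21.1% of kept cells, the endothelial transcript Pecam1 in 34.2%, 15.2% and 19.7% and the leukocyte transcript Ptprc in 56.6%, 31.9% and 71.6%.

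Cytotoxic lymphocytes kill by releasing granules whose pore-former perforin (Prf1) lets granzymes, a family of serine proteases, enter the target cell. Fas ligand (Fasl) kills through a death receptor on the target, while interferon gamma (Ifng) and the chemokine Xcl1 act on other immune cells. Eomes is a T-box transcription factor of NK cells and of effector and memory CD8 T cells, and in fat, NK cells and T cells are resident cells of the stromal fraction whose numbers shift with inflammation.

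On GRCm38, in the GENCODE M21 annotation, Gzma (chr13:113093825-113100981, minus strand) and Gzmk (chr13:113171608-113225908, minus strand) lie on the same chromosome. Prf1 (chr10:61297833-61304680), Gzmm (chr10:79689020-79695261) and Ifng (chr10:118441046-118445892) lie on the plus strand of chromosome 10. Fasl (chr1:161780689-161788495) and Xcl1 (chr1:164931644-164935527) lie on the minus strand of chromosome 1. Gzmb is at chr14:56258838-56262260 (minus), Nkg7 at chr7:43437073-43438249 (plus) and Eomes at chr9:118478212-118486132 (plus).

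Because a T-box factor is itself on the list, the 250 bases upstream of each annotated RefSeq start (GRCm38.p6) were searched on both strands for GTGTGA, the core of the T-box motif (reverse complement TCACAC). It was present for 5 of the 10 genes, Gzmb, Gzmk, Gzmm, Nkg7 and Xcl1, against 13.9% of 27025 genes and 12.3% of 32851 promoters. Gzmm held it only before an internal alternative start. The Gzmk window, and the end of the Nkg7 window that holds the core, also lie inside the GENCODE intervals given above. TGTGGT (reverse ACCACA), a Runx motif, was found for 6 of the 10 genes and for 15.9% of all genes, and TGANTCA, an AP-1 motif that is its own reverse complement, for 1 of 10 (Gzmb) and 7.82% of all genes. Windows of 4 genes with the T-box core are shown with the core in capitals, and Gzma as a window with none. They are Gzmk at chr13:113180966-113181215, Gzmb at chr14:56262335-56262584, Xcl1 at chr1:164935523-164935772 and Gzma at chr13:113100982-113101231 (all minus strand) and Nkg7 at chr7:43436888-43437137 (plus strand).
Gzmk: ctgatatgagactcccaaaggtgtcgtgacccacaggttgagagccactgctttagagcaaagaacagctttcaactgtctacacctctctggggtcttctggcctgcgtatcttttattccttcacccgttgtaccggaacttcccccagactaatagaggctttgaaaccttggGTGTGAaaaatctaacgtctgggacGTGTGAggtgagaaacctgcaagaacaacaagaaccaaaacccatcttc
Gzmb: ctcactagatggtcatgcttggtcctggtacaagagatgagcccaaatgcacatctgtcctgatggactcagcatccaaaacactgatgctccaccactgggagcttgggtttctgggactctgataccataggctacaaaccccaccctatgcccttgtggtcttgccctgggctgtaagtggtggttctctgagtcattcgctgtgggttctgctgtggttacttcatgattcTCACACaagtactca
Nkg7: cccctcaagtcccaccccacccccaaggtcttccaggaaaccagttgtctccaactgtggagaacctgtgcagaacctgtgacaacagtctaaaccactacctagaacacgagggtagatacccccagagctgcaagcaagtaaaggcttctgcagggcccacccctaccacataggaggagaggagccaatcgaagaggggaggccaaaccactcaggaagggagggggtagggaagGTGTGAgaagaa
Xcl1: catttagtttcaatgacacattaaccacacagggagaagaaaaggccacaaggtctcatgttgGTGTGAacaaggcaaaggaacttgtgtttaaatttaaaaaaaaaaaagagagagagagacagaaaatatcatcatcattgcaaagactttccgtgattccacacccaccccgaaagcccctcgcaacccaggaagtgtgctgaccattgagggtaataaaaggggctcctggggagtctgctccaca
Gzma: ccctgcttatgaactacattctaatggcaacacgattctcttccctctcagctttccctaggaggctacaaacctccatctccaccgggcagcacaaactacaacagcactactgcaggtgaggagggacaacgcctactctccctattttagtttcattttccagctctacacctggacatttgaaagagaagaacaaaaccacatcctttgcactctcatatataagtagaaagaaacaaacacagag
The core began 74 and 49 bases before the start in Gzmk, 15 in Gzmb, 12 in Nkg7 and 187 in Xcl1. A match is a description of these letters and says nothing of whether Eomes or another factor binds there.

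Cells were assigned from marker counts that use none of the 10 genes, with all counts as unique molecular identifiers (UMIs). NK cells had no Cd3d, Cd3e or Cd3g UMI and at least 2 UMIs of Ncr1, Klrb1c, Klre1, Klri2, Klra4 and Klra8. Their sums held 1403, 1785 and 1424 CPM (UMIs per 1000000) of that list, and also 1494, 748 and 498 CPM of the alpha-beta T cell receptor chains. The gate does not separate NK cells from other innate lymphoid cells that carry these receptors. CD8 cells had a CD3 UMI, at least 2 of Cd8a and Cd8b1 and no Cd4. CD4 cells had a CD3 and a Cd4 UMI and none of Cd8a, Cd8b1 or Trdc. Gamma-delta cells had CD3, Trdc and at least 2 gamma-delta chain UMIs and no Trac, Cd4 or Cd8b1. This gave, for wild type first, then Pdgfra-Cre, then Pdgfrb-Cre, 29, 40 and 45 NK cells, 174, 176 and 693 CD8 cells, 159, 26 and 270 CD4 cells and 21, 20 and 66 gamma-delta cells. They came from 2668, 1409 and 3903 kept cells. A further 336, 63 and 719 cells with a CD3 UMI met no gate, and the 4 classes held between 63.7% (Eomes) and 92.7% (Gzma) of each gene's UMIs in kept cells of all libraries. For wild-type Gzmb and Fasl it was less, 46.1% and 48.5%, with 48.7% and 48.5% in the CD3 cells that met no gate. In Pdgfra-Cre those cells held 3.59% of the Gzmb and 9.33% of the Fasl UMIs, and in Pdgfrb-Cre 14.1% and 30.1%. Some CD4 cells were at the edge of their gate: 72, 16 and 159 had a single Cd4 UMI. Kept libraries shared at most 2 cell barcodes pairwise.

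Median depth per cell differed little between libraries within a class, between 4346 and 4684 UMIs for NK, 6138 and 7403 for CD8, 4993 and 5400 for CD4 and 4794.5 and 4920 for gamma-delta cells. Levels are given as CPM, the UMIs of a gene per 1000000 UMIs of the summed class in a library, always in the order wild type, Pdgfra-Cre, Pdgfrb-Cre. Since the chemistry counts 3' ends, no length scaling applies. B cells, which should lack these transcripts, held at most 8 UMIs of any of the 10 genes in a library, and at most 4.2 CPM. Intervals are 95%, exact, and cover counting error only. With 1 library per genotype there is no test between genotypes. As far as the labels say, a library is also its animal or animals, a preparation and a run. Genotype cannot be told apart from them. In Pdgfra-Cre, 14 of the 27 B cells met a minimum of Xist UMIs with no UMI of Y-chromosome genes. No B cell of the other libraries and no NK, CD8, CD4 or gamma-delta cell of any library did. Whether the Pdgfra-Cre library held cells of more than 1 animal was not tested.

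**Figure D1:**
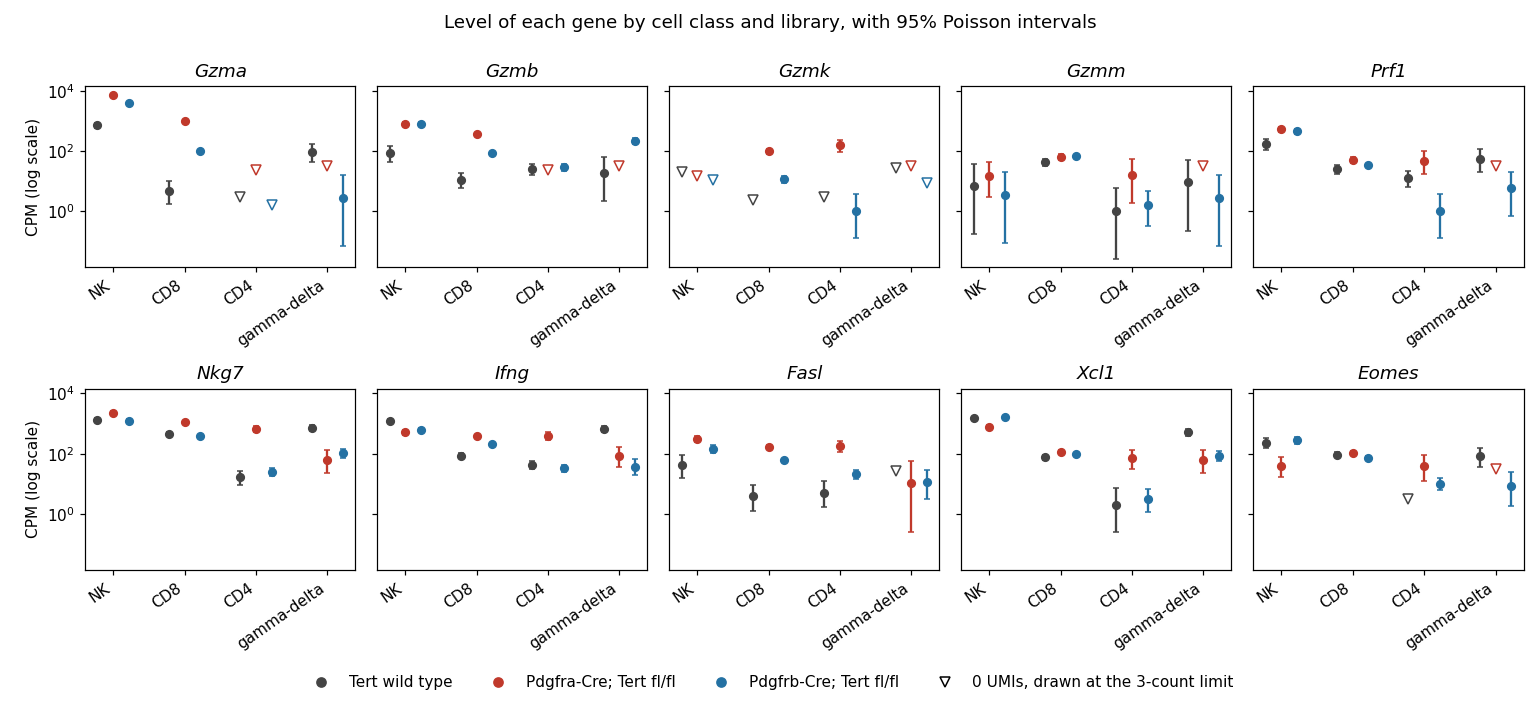
Level of each of the 10 genes (CPM, log scale) in the 4 cell classes, one point per library with its 95% Poisson interval, and open triangles at the 3-count limit where there were 0 UMIs. Gzma, Prf1 and Xcl1 sit highest in NK cells in every library, and Gzmk appears in the CD8 and CD4 cells of the 2 Cre libraries.

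Granzyme A was mainly an NK cell transcript. Gzma, a tryptase, reached 712, 7297 and 3866 CPM in NK cells, with a UMI in 8 of 29, 25 of 40 and 33 of 45 cells. In CD8 cells it was at 4.71, 1021 and 98.4 CPM, and in CD4 cells it had 0 UMIs in all 3 libraries. NK cells were above CD8 cells of the same library each time, though the highest CD8 level, in Pdgfra-Cre, exceeded the lowest NK level. In gamma-delta cells Gzma was at 91.4, 0 and 2.90 CPM.

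Gzmb, the aspartase that starts caspase cleavage in targets, was at 83.8, 779 and 803 CPM in NK cells and at 11.0, 366 and 84.2 in CD8 cells. It was carried by 4 of 174, 86 of 176 and 120 of 693 CD8 cells, so the wild-type library was lowest in both classes. CD4 cells held 25.9, 0 and 29.1 CPM of Gzmb, and this came mostly from cells with a UMI of Foxp3, the regulatory T cell factor. In the wild-type library 24 Foxp3 cells held 118 CPM against 7.47 in the other 135 CD4 cells, and in Pdgfrb-Cre 38 Foxp3 cells held 118 against 4.14 in the other 232. The wild-type UMIs came from 6 Foxp3 cells, and the 48 Pdgfrb-Cre UMIs from only 3. The 212 CPM of Gzmb in Pdgfrb-Cre gamma-delta cells rested on 5 of 66 cells.

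Gzmk, a granzyme of memory-like T cells, was a T cell transcript here. NK and gamma-delta cells had 0 Gzmk UMIs in all 3 libraries. The wild-type library had none in any of its 2668 kept cells, which allows a share of cells with a Gzmk UMI of up to 0.112% and does not bound the share that express the gene. In CD8 cells Gzmk was at 0, 99.5 and 11.6 CPM, with a UMI in 51 of 176 Pdgfra-Cre and 25 of 693 Pdgfrb-Cre cells. In CD4 cells it was at 0, 157 and 1.08 CPM, the middle value from 7 of 26 cells. Gzmk, with 191 UMIs in CD8 and 22 in CD4 cells, reached the level of the low-count filter in too few of the class sums. It was thus left out of the tests between classes.

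Gzmm, unlike Gzma, was higher in CD8 than in NK cells. It was at 42.4, 63.9 and 66.6 CPM in CD8 cells, and at 6.98, 15.2 and 3.59 in NK cells, which carried 1, 3 and 1 UMIs. CD4 and gamma-delta cells had at most 15.7 CPM. The 3 CD8 levels lay above all 9 levels of the other classes.

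Perforin (Prf1) was at 174, 536 and 452 CPM in NK cells and at 25.1, 50.5 and 33.5 in CD8 cells. The NK levels did not overlap those of any other class. Nkg7, a granule membrane protein needed for degranulation, was the most broadly detected of the 10 in NK and CD8 cells: it was found in 93.1%, 95% and 91.1% of NK cells and in 83.3%, 95.5% and 75.2% of CD8 cells. Its levels were 1340, 2286 and 1255 CPM in NK and 467, 1083 and 375 in CD8 cells. In CD4 cells they were 16.6, 649 and 24.8 CPM, with the Pdgfra-Cre library apart from the other pair.

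Ifng was highest in wild-type NK cells, at 1228, 511 and 606 CPM, and lower in CD8 cells, at 86.3, 381 and 210. Xcl1, a chemokine for cross-presenting dendritic cells, was at 1494, 794 and 1653 CPM in NK cells against 76.1, 114 and 96.5 in CD8 cells, with no overlap. Fasl was at 41.9, 308 and 147 CPM in NK cells and at 3.92, 170 and 61.6 in CD8 cells. It was found in 5 of 174, 112 of 176 and 199 of 693 CD8 cells. In both classes its order over libraries was wild type, Pdgfrb-Cre, Pdgfra-Cre, with the last the highest.

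Eomes was at 230, 40.5 and 276 CPM in NK cells, with a UMI in 10 of 29, 6 of 40 and 23 of 45 cells. In CD8 cells it was level over libraries, at 93.4, 105 and 74.2 CPM. CD4 cells had 0, 39.1 and 10.2 CPM and gamma-delta cells 82.2, 0 and 8.71. The Pdgfra-Cre NK cells, which had the highest Gzma, thus had the lowest Eomes of the NK sums.

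Classes were compared over the 3 libraries with edgeR's quasi-likelihood test on the 12 class-by-library sums, library as block, and Benjamini-Hochberg adjustment over 4361 genes. Of the 10 genes, 9 were tested. Since library was a block, level differences common to all classes of a library did not enter the error. These p-values rest on how far the differences between classes varied over 3 libraries of different genotypes.

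NK cells held more Prf1, Xcl1 and Gzma than CD8 cells and less Gzmm. A total of 3 of the 9 tested genes were higher, against 4.52% of all genes, and 1 was lower, against 5.37%, at an adjusted p under 0.05. The log2 fold changes were 3.13 ± 0.52 (SE) for Prf1 (edgeR adjusted p = 0.00131), 3.45 ± 0.70 for Xcl1 (0.00501), 4.23 ± 0.94 for Gzma (0.0130) and -3.15 ± 0.56 for Gzmm (0.00193). Each direction was seen in 3 of 3 libraries. Nkg7 and Ifng were also higher in NK cells in 3 of 3 libraries but did not pass, with log2 fold changes of 1.20 ± 0.83 and 1.47 ± 0.83. The median over the 9 genes was 1.47, and that over all genes was 0.01. Without the Pdgfrb-Cre library only Prf1 passed, and Gzmm fell under the low-count filter and was not tested. Without the block only Gzmm passed. DESeq2 called Xcl1 and Gzmm.

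Against CD4 cells, NK cells were higher for 7 of 9 genes, where 4.59% of all genes were higher and 3.37% lower. Xcl1 differed by 7.40 ± 1.01 on the log2 scale, Prf1 by 5.30 ± 0.72, Eomes by 4.44 ± 0.83, Nkg7 by 3.85 ± 1.0, Gzmb by 3.72 ± 0.96 and Fasl by 1.93 ± 0.45. Gzma had 0 UMIs in the CD4 cells. With the UMIs of the 3 libraries pooled, it was 4160-fold higher against a floor of 3 counts. In each library alone the bound would be lower. Ifng (log2 fold change 2.94 ± 0.96) and Gzmm (1.75 ± 0.99) did not pass. The median of the 9 was 3.85, also with Gzma at its bound, against -0.01 over all genes. Without the Pdgfrb-Cre library only Prf1 passed, and without the block Gzma, Prf1 and Xcl1 did. DESeq2 did not call Eomes (adjusted p = 0.222) or Gzmb (0.136).

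NK cells exceeded gamma-delta cells for 3 of 9 genes, Gzma (7.25 ± 1.38), Prf1 (4.54 ± 0.84) and Fasl (4.06 ± 0.69), against 1.24% of genes higher and 2.04% lower. None passed without the Pdgfrb-Cre library or without the block, where 4 and 5 genes had an unadjusted edgeR p under 0.05. Only Fasl passed without Pdgfra-Cre, and without the wild-type library 7 of 10 tested genes passed. The share of all genes passing in those fits was not worked out. The median over the 9 genes was 2.74. The gamma-delta sums came from 20 to 66 cells. DESeq2 did not call Gzma.

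CD8 cells exceeded CD4 cells for 4 of 9 genes: Gzmm by 4.89 ± 0.49, Xcl1 by 3.95 ± 0.99, Eomes by 3.77 ± 0.80, and Gzma. With the UMIs of the 3 libraries pooled, Gzma was 223-fold higher against a floor of 3 counts. In each library alone the bound would be lower, and the wild-type CD8 cells held only 6 Gzma UMIs. Over all genes 2.38% were higher and 1.90% lower. The median of the 9 genes was 2.66, also with Gzma at its bound. Fasl did not pass: the log2 fold change was 0.94 ± 0.40 and CD8 cells were higher in 1 of 3 libraries. Its levels were 3.92, 170 and 61.6 CPM in CD8 cells and 5.19, 180 and 21.0 in CD4 cells. None passed without the Pdgfrb-Cre library (edgeR), where 2 had an unadjusted p under 0.05. Gzmm fell under the low-count filter there and was not tested. Xcl1 was lost without the wild-type library and Gzma without Pdgfra-Cre, and both were lost when Foxp3 cells were left out of the CD4 class. DESeq2 did not call Eomes or Xcl1.

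Gamma-delta cells were lower than CD8 cells for Gzmm (-4.23 ± 0.71) and Fasl (-3.07 ± 0.69), 2 of 9 genes, against 4.08% of genes lower and 5.09% higher. Against CD4 cells they were higher for Xcl1 (4.66 ± 1.05) alone, 1 of 9 genes, against 2.29% of genes higher and 0.986% lower. The Xcl1 call ended when the wild-type or the Pdgfrb-Cre library was left out. The Fasl call against CD8 cells ended without Pdgfrb-Cre and without Pdgfra-Cre. Gzmm fell under the low-count filter without Pdgfrb-Cre and was not tested there. Without the wild-type library 6 of 10 tested genes passed against CD8 cells, and the share of all genes passing there was not worked out. DESeq2 did not call Xcl1 against CD4 cells.

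**Figure D2:**
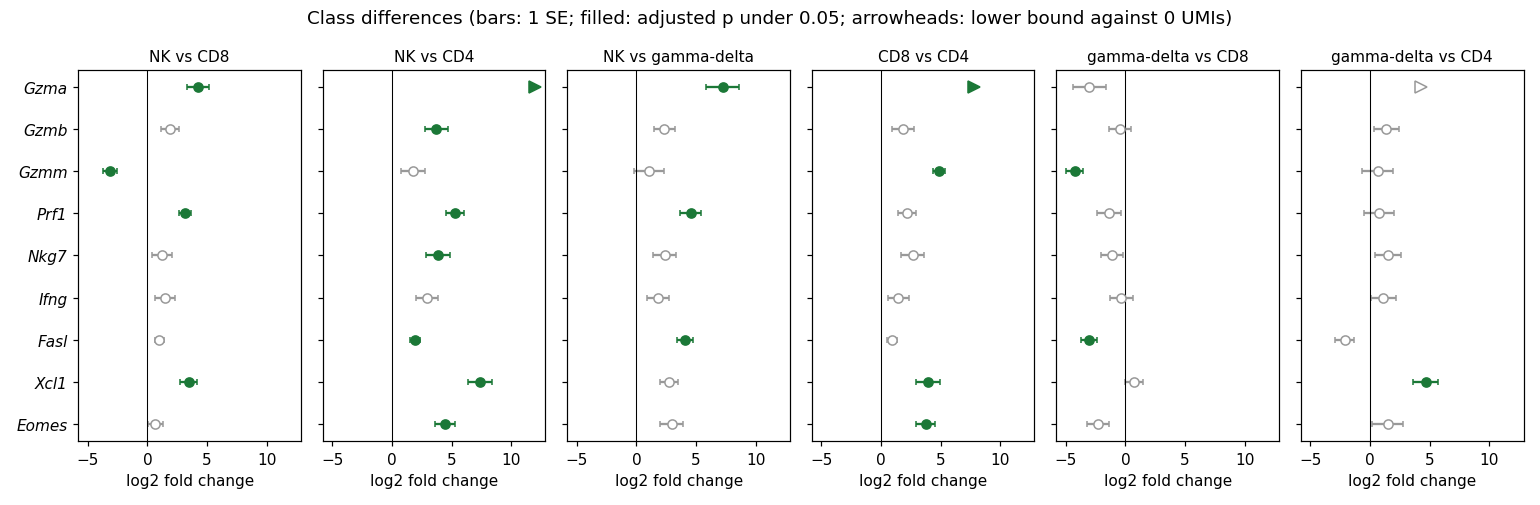
Log2 fold change of the 9 tested genes in the 6 class comparisons with bars of 1 SE from edgeR's fit, filled where the adjusted p was under 0.05. Arrowheads mark Gzma where CD4 cells had 0 UMIs, at a bound with the UMIs of the libraries pooled. Prf1 and Xcl1 lie right of 0 in NK against CD8 cells while Gzmm lies left of it.

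Other genes of the pathway were taken in 6 lists, 46 genes in all, chosen with earlier results of these data known. Of 8 granule-handling genes tested, 2 were higher in NK than in CD8 cells, Serpinb9 (2.99 ± 0.36) and Serpinb6b (2.66 ± 0.43), and none was lower. Serpinb9 is the inhibitor of granzyme B that protects the killer cell, and Serpinb6b is a relative. Against CD4 cells 4 of 8 were higher in NK cells, among them Serpinb9 (4.91), Serpinb6b (4.18) and the granule protease Ctsw (3.97). In CD8 against CD4 cells 3 of 8 were higher, Ctsw (3.26), Serpinb9 (1.92) and the protease inhibitor Cst7 (1.18). The chemokine genes Ccl3 and Ccl4 were higher in NK than in CD8 cells by 5.36 and 2.55 on the log2 scale, 2 of the 4 tested other effectors. They were also higher than in CD4 cells (8.16 and 8.39) and gamma-delta cells (7.23 and 6.48).

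Of 8 tested transcription factors, Id2 (2.0) and Nfil3 (1.59) were higher and the naive T cell factors Lef1 (-4.15) and Tcf7 (-1.50) lower in NK than in CD8 cells. Tbx21, the T-box relative of Eomes, was higher in NK than in CD4 cells (3.0 ± 0.70, edgeR adjusted p = 0.0167). It did not pass in NK against CD8 cells (1.30 ± 0.53) or against gamma-delta cells (1.81 ± 0.79). Of 5 tested receptor genes, Il12rb2 (2.81) and Il18rap (2.14), parts of the receptors for the interferon-inducing cytokines IL-12 and IL-18, were higher in NK than in CD8 cells. Stx11, a syntaxin of granule release, was higher in NK than in CD8 cells (1.92) and lower in CD8 than in CD4 cells (-2.99), 1 of 4 tested degranulation genes each time. None of the 6 other granzymes, Gzmc to Gzmg and Gzmn, had enough UMIs to be tested.

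Within classes, the 2 Cre libraries were set against the wild-type library. A gene counted as past 2-fold when the log2 ratio of CPM + 10 was at least 1 in size, among genes with at least 20 UMIs in the pair and 20 CPM in either library. Both Cre libraries share the wild-type control, so their values stand side by side and do not support each other. The median log2 ratio of the eligible genes was 1.17 and 0.79 in NK cells for Pdgfra-Cre and Pdgfrb-Cre, beside 0.10 and 0.04 over all eligible genes. In CD8 cells it was 1.61 and 0.55, beside 0.25 and 0.04, in CD4 cells 3.64 and 0.25, beside 0.12 and 0.13, and in gamma-delta cells -2.84 and -2.57, beside 0.19 and 0.30.

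In NK cells the killing genes were higher in both Cre libraries and Ifng was lower. A total of 4 of 8 eligible genes were past 2-fold higher in Pdgfra-Cre, against 11.7% of all eligible genes, and 4 of 8 in Pdgfrb-Cre, against 13.2%: Gzma, Gzmb, Prf1 and Fasl each time. The Pdgfra-Cre to wild-type ratio was 10.2 (95% interval 8.38 to 12.7) for Gzma, 9.30 (5.17 to 18.4) for Gzmb, 3.07 (1.97 to 4.96) for Prf1 and 7.37 (3.20 to 20.9) for Fasl. In Pdgfrb-Cre the ratios were 5.43 (4.43 to 6.72), 9.59 (5.38 to 18.8), 2.59 (1.68 to 4.15) and 3.51 (1.48 to 10.1). The wild-type side of the Gzmb and Fasl ratios was 12 and 6 UMIs.

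Ifng was lower in NK cells of both, at ratios of 0.416 (0.322 to 0.534) and 0.493 (0.397 to 0.613), and Eomes in Pdgfra-Cre at 0.176 (0.0701 to 0.388). The genes past 2-fold lower were 2 of 8 in Pdgfra-Cre, against 5.35%, and 1 of 8 in Pdgfrb-Cre, against 8.93%. With a stricter exclusion of other lineages the 2 Ifng log2 ratios shrank from -1.25 and -1.01 to -0.77 and -0.36. Summed cycling genes (Mki67, Top2a, Cdk1, Ccnb1) were at 503, 91.0 and 115 CPM in NK cells, and summed naive-type genes (Ccr7, Lef1, Tcf7) at 216, 55.6 and 255. With cycling cells left out, the Ifng log2 ratios were -1.70 and -1.13, and those of Gzma were 3.16 and 2.57. The make-up of the NK gate also differed: Ncr1 was at 858, 359 and 154 CPM, Klra8 at 14, 167 and 341, Klre1 at 147, 673 and 244, and alpha-beta chains, mostly Trbc1 and Trbc2, at 1494, 748 and 498. The part of the naive-type genes and of this make-up in the differences was not tested.

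In CD8 cells Gzma, Gzmb, Fasl and Ifng were higher in both Cre libraries, with the larger ratios in Pdgfra-Cre. Ifng thus lay on the other side of the wild-type level than in NK cells, and that difference between the classes was not tested. A total of 6 of 10 eligible genes were past 2-fold higher in Pdgfra-Cre, against 8.04%, and none lower, against 1.93%. In Pdgfrb-Cre, 4 of 9 were higher, against 7.25%, and none lower, against 4.33%. Gzma was 217-fold (99.3 to 592) higher in Pdgfra-Cre and 20.9-fold (9.54 to 57.2) higher in Pdgfrb-Cre, each against 6 wild-type UMIs. Gzmb was 33.3-fold (19.7 to 61.5) and 7.66-fold (4.52 to 14.1) higher, and Fasl 43.3-fold (18.3 to 135) and 15.7-fold (6.66 to 48.6).

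Gzmk, with 0 wild-type UMIs, was at least 42.3-fold higher in Pdgfra-Cre and at least 4.91-fold higher in Pdgfrb-Cre against a floor of 3 counts. The 95% intervals of these ratios began lower, at 33.9 and 3.88, and the Pdgfrb-Cre level was under the 20 CPM needed to be counted. Ifng was 4.42-fold (3.58 to 5.49) and 2.44-fold (2.0 to 2.99) higher. Nkg7 was 2.32-fold (2.11 to 2.56) higher in Pdgfra-Cre and at a ratio of 0.803 (0.733 to 0.881) in Pdgfrb-Cre. Prf1, Gzmm, Xcl1 and Eomes stayed within 2-fold in both, with ratios from 0.795 to 2.01.

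A few cells carried most of the CD8 Gzma. The 5 cells with the most held 69.8% of the Pdgfrb-Cre and 61.4% of the Pdgfra-Cre UMIs.

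The mix of CD8 cells differed between the libraries. Cells with any UMI of Ccr7, Lef1 or Tcf7 were 94.8%, 71.0% and 95.1% of the CD8 cells. The summed list was at 676, 736 and 927 CPM. Such a split also follows depth. Median depth was 7304, 8279 and 7454 UMIs in cells with such a UMI, against 2422, 4225 and 4332.5 in those without. Among the cells with such a UMI (165, 125 and 659), Gzmb was at 9.72, 172 and 55.1 CPM and Fasl at 4.05, 138 and 58.1. Gzma there was at 4.86, 61.9 and 10.7 CPM, and the interval of the Pdgfrb-Cre to wild-type ratio, 2.19 (0.948 to 6.22), held 1. Ifng ratios in those cells were 2.84 (2.23 to 3.64) and 2.48 (2.01 to 3.09). The part of the CD8 mix in the differences between libraries was not tested.

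The CD8 cells without such a UMI were 9, 51 and 34. In the Cre libraries they held 5277 and 1842 CPM of Gzma and 1228 and 661 of Gzmb, and the 9 wild-type cells had 0 Gzma UMIs.

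**Figure D3:**
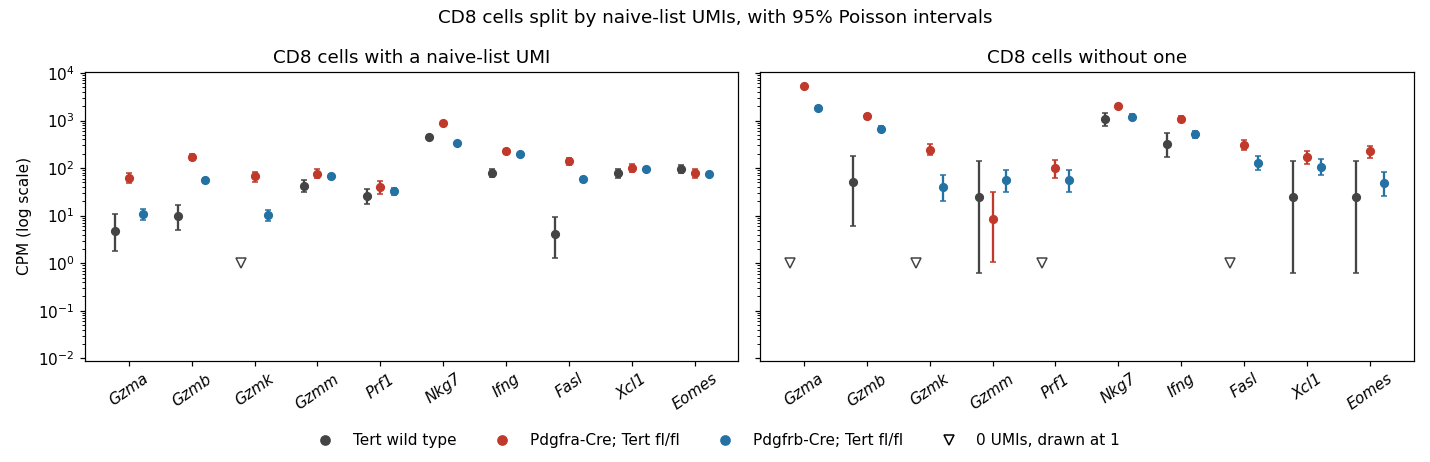
Levels (CPM, log scale, 95% Poisson intervals) of the 10 genes in CD8 cells with a UMI of Ccr7, Lef1 or Tcf7 (left) and without one (right), by library. On the left, Gzmb and Fasl of the Cre libraries lie above the wild-type points, and on the right the wild-type points rest on 9 cells. Cells on the right were shallower.

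The CD8 cells with Gzma and with Gzmk were also described by what else they carried. Of the 26 Pdgfra-Cre CD8 cells with Gzma, 24 had Gzmb, 0 had Xcl1, 3 had Eomes and 1 had Gzmm. Of the 150 without Gzma, 43 had Xcl1 and 49 had Eomes. Klre1 gave 73 of the 79 NK-list UMIs of the Pdgfra-Cre CD8 cells. An NK-list UMI was found in 18 of those 26 cells (69.2%) and in 17 of the 150 (11.3%), while Ncr1 was at 0 UMIs in CD8 cells of all 3 libraries. A naive-list UMI was in 23.1% of the Gzma cells and in 79.3% of the rest. Cells with Gzma were shallower, with a median of 4742.5 UMIs against 7132. In Pdgfrb-Cre these contrasts were smaller. Of 36 CD8 cells with Gzma, 20 had Gzmb, 10 had Xcl1 and 10 had Eomes, and of 657 without, 100, 158 and 170. An NK-list UMI was in 25% against 8.83%, a naive-list UMI in 63.9% against 96.8%, and the median depth was 7559 against 7403 UMIs.

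Among CD8 cells, 27 of 51 Gzmk cells had Eomes against 25 of 125 without Gzmk in Pdgfra-Cre, and 15 of 25 against 165 of 668 in Pdgfrb-Cre. The Pdgfra-Cre Gzmk cells shared other traits with the Gzma cells: an NK-list UMI was in 33.3% against 14.4%, a naive-list UMI in 52.9% against 78.4%, and the median depth was 5393 against 7898 UMIs. Cells of 1 library are not replicates, so these shares carry no test. In CD8 cells without any NK-list UMI, Gzma was at 4.85, 484 and 80.6 CPM and Gzmb at 10.5, 225 and 83.8. The order of the libraries was the same there as in all CD8 cells, and the part of the NK-list cells in the differences was not tested.

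In Pdgfra-Cre NK cells Xcl1 was likewise found in 6 of 25 cells with Gzma and in 11 of 15 without, whereas in Pdgfrb-Cre NK cells the counts were 26 of 33 and 9 of 12. Gzma and Prf1 were found together in both, in 22 of 25 and 27 of 33 Gzma cells, against 6 of 15 and 5 of 12 without Gzma.

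In CD4 cells the Pdgfra-Cre library stood apart. A total of 4 of 5 eligible genes were past 2-fold higher there, against 10.8%, and 1 lower, Gzmb, against 9.71%. Gzmb had 0 UMIs there, at least 1.10-fold lower against 3 counts, and the interval of the ratio (0 to 1.20) held 1. Only 2 of the 26 cells had a Foxp3 UMI, and without Foxp3 cells the Gzmb log2 ratio was -0.81, within 2-fold. Nkg7 was 39.1-fold (22.7 to 71.6), Fasl 34.7-fold (12.9 to 117) and Ifng 9.20-fold (5.97 to 14.3) higher than in wild type, and Gzmk was at least 50.3-fold higher against 3 counts, with an interval that began at 37.2. Nkg7 and Ifng were each found in 15 of 26 cells. These 26 cells are few, 16 of them had a single Cd4 UMI, and their naive-list sum was 250.4 CPM against 693 in wild type and 881 in Pdgfrb-Cre. NK-list genes were at 39.1 CPM in them against 1.04 and 0, with Ncr1 at 0 UMIs, and gamma-delta chains at 70.4 against 3.11 and 3.23, with Trdc at 0. The part of that mix was not tested.

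Pdgfrb-Cre CD4 cells were close to wild type, with only Fasl past 2-fold higher (4.05, 1.59 to 13.2), 1 of 4 eligible genes, against 7.65% higher and 3.56% lower over all genes. That call ended when a second Cd4 UMI was asked for.

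In gamma-delta cells Nkg7, Ifng and Xcl1 were lower in both Cre libraries. Nkg7 was found in 17 of 21, 2 of 20 and 11 of 66 cells and was at 722, 62.8 and 105 CPM. Ifng was at 658, 83.8 and 37.7 CPM and Xcl1 at 512, 62.8 and 84.2. All 3 of 3 eligible genes were past 2-fold lower in Pdgfra-Cre (7.36% of all lower, 22.0% higher) and 3 of 4 in Pdgfrb-Cre (6.10% lower, 23.6% higher), where Gzmb was 11.6-fold (3.1 to 97.6) higher. That Gzmb ratio turned to a log2 value of -0.30 when cycling cells were left out.

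The wild-type gamma-delta cells also carried NK-list UMIs, 402 CPM against 0 and 17.4, in 12 of 21, 0 of 20 and 5 of 66 cells. Among those without one, 9, 20 and 61 cells, Nkg7 was at 640, 62.8 and 92.1 CPM, still highest in wild type. Ifng there was at 94.7, 83.8 and 38.1 and Xcl1 at 118, 62.8 and 57.1, where 4 of the 72 wild-type Ifng UMIs and 5 of the 56 Xcl1 UMIs lay. The part of this mix in the differences was not tested.

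**Figure D4:**
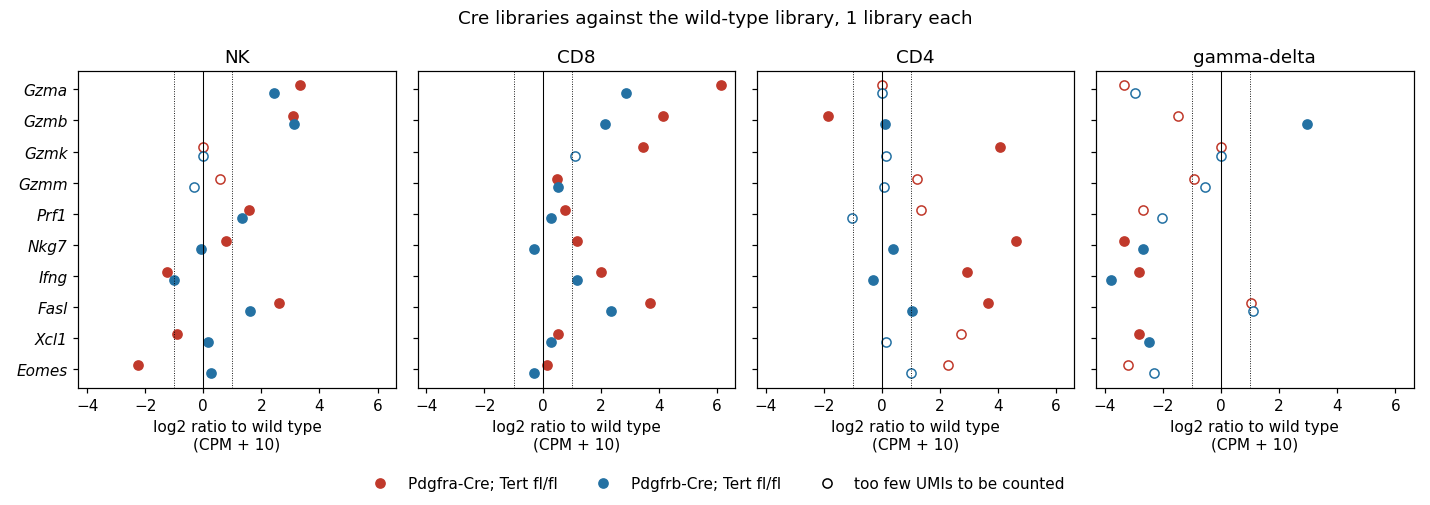
Log2 ratio of each Cre library to the wild-type library (CPM + 10) by class, open where too few UMIs were present, dotted lines at 2-fold. Gzma, Gzmb and Fasl points of NK and CD8 cells lie to the right, as do Gzmk and Ifng points of CD8 cells. Gamma-delta Nkg7, Ifng and Xcl1 points lie to the left.

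The number of the 10 genes detected in a cell, after thinning each cell to 1500 UMIs, summarised the classes. At least 4 were found in 26.9%, 48.7% and 72.7% of NK cells, in 1.78%, 23.6% and 3.61% of CD8 cells and in 5%, 0% and 0% of gamma-delta cells. None was found in 88.3%, 32.0% and 89.9% of CD4 cells and in 20%, 89.5% and 81.3% of gamma-delta cells. In CD8 cells the share with none was 42.6%, 13.2% and 46.5%, lowest in Pdgfra-Cre as in CD4 cells. Thinned Gzmb shares in CD8 cells were 0.592%, 31.6% and 6.64%, in the order of the unthinned 2.30%, 48.9% and 17.3%.

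**Figure D5:**
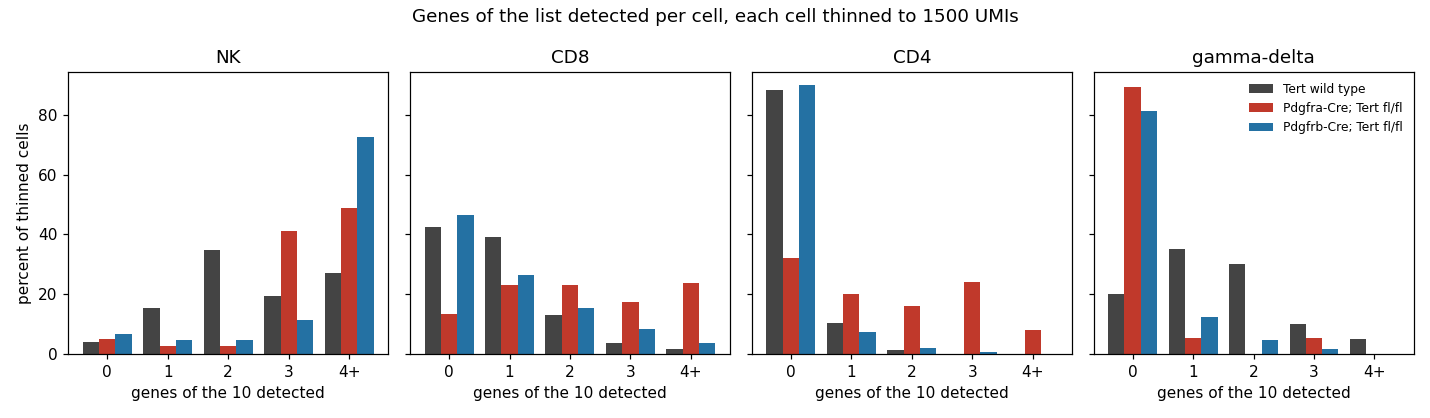
Share of cells (percent) by how many of the 10 genes were detected after each cell was thinned to 1500 UMIs, by class and library. NK cells of the Cre libraries are shifted to 3 and more genes, and most CD4 cells of the wild-type and Pdgfrb-Cre libraries have 0.

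Over the 12 class-by-library sums, the genes most like each of the 10 were ranked by Pearson's r of log2(CPM + 10) among 4471 genes, as a description over sums that share cells' depth and library. Gzma was closest to Klra9 (0.95), Ccl4 (0.93) and Serpinb9 (0.90), and Prf1 to Ccl3 (0.95), Slamf7 (0.93) and Lrrk1 (0.92). Nkg7 was closest to Klrd1 (0.95), Ctsw (0.95) and Nr4a2 (0.94), Ifng to Gimap5 (0.92), and Xcl1 to Peak1 (0.94). Gzmm had no close neighbour (highest r 0.78, Fam241a). Within the list, r was 0.90 between Gzma and Prf1, 0.89 between Nkg7 and Ifng and 0.82 between Gzma and Gzmb, while Gzmk with Gzma was at -0.02.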

How the data were processed

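Counts were analysed as deposited: the authors made UMI counts per gene and barcode with Cell Ranger 3.1.0 and STAR 2.6 on mm10, per the submitters' processing notes. They are not normalised, and how introns or strand were counted is not given in the sources used here. Totals were 13352288 UMIs over 4124 barcodes in wild type, 14438471 over 2310 in Pdgfra-Cre and 30826733 over 4355 in Pdgfrb-Cre. A cell needed 500 genes or more and no more than 15% of UMIs from mitochondrial genes, and Scrublet's highest scores (0.8% per 1000 cells) were removed as doublets. Gated cells also had under 5 UMIs of B cell, myeloid, endothelial and stromal marker lists each. Class sums were tested with edgeR 4.0.16 (R 4.3.3, TMM, quasi-likelihood, library block), with DESeq2 1.42.0 as an alternative. The code was tested on simulated data. The named genes are the 10 listed genes, then up to 3 genes per pathway list by size of change and the 3 most alike by correlation among genes reaching 50 CPM. The 10 genes, gates and lists were chosen with earlier results of these data known. The naive-type list was used without 1 of its genes, which is not reported here. Promoters are RefSeq's and coordinates GENCODE's. The settings for CD8 cells split by naive or NK markers, for Foxp3 cells and for cycling cells were added after seeing the data.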

Additional observations from a re-analysis of the deposited data

How the results depend on the processing

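The counts of genes passing in the class comparisons (of 9, or of 10 without a filter, with gates after thinning, with the stricter cell filter or lineage exclusion and without the wild-type library) depended on how the tests were built. Without the low-count filter they were 8 for NK against CD8, 8 for NK against gamma-delta, 8 for CD8 against CD4, 7 for gamma-delta against CD8 and 7 for gamma-delta against CD4. Without the replicate block of library they were 1, 0, 1, 1 and 0 for the same comparisons and 3 for NK against CD4. With DESeq2 they were 2 for NK against CD8, 2 for CD8 against CD4 and 0 for gamma-delta against CD4. Gates set after thinning gave 7 for NK against gamma-delta, 7 for CD8 against CD4 and 8 for gamma-delta against CD8. Sums under 20 cells were left out there. Gamma-delta cells were thus the Pdgfrb-Cre sum alone, assumed to vary like the others. NK cells were the 2 Cre sums, and CD4 cells lacked the Pdgfra-Cre sum. Gates 1 UMI stricter gave 1 for NK against gamma-delta, 1 for gamma-delta against CD8 and 2 for gamma-delta against CD4. The stricter cell filter gave 1 for NK against gamma-delta and 1 for gamma-delta against CD8, and the stricter lineage exclusion 1 for gamma-delta against CD8. The Pdgfra-Cre gamma-delta sum was left out with the stricter gates (19 cells), the stricter cell filter (19) and the stricter lineage exclusion (18). With the stricter gates the Pdgfra-Cre CD4 sum (10 cells) was left out too. Leaving out cycling cells gave 5 for NK against gamma-delta, and leaving out Foxp3 cells 2 for CD8 against CD4. The share of all genes passing was worked out for the main fit alone, so the counts under other settings have none beside them. The cause of these changes was not tested.

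Leaving out 1 library at a time, the counts ranged from 1 to 5 for NK against CD8, 1 to 8 for NK against CD4, 0 to 7 for NK against gamma-delta, 0 to 4 for CD8 against CD4, 0 to 6 for gamma-delta against CD8 and 0 to 2 for gamma-delta against CD4. The lowest count came without the Pdgfrb-Cre library in each, and for gamma-delta against CD4 also without the wild-type library. Without the Pdgfrb-Cre library Gzmm fell under the low-count filter and was not tested. In the settings with 0 genes passing for gamma-delta against CD4, 3 genes had an unadjusted p under 0.05 with DESeq2 and, with edgeR, 1 without the block, 3 without the Pdgfrb-Cre and 4 without the wild-type library. For gamma-delta against CD8 it was 2 without the Pdgfrb-Cre library. No class value that passed reversed. Among the 28 class values that did not pass and are not described, 10 reversed under some setting, mostly in gamma-delta comparisons. No paired analysis was possible because each genotype had 1 library for the comparisons between libraries.

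Between libraries, 367 values kept to within their interval, 23 moved and 1 reversed: the Pdgfrb-Cre Gzmb log2 ratio in gamma-delta cells was -0.2997 without cycling cells. The count past 2-fold in Pdgfrb-Cre CD4 cells was 0 with gates after thinning and 0 with stricter gates. Of 30 gene and library shares, those above the B cell share fell from 12 to 7 in CD4 cells and from 12 to 6 in gamma-delta cells after thinning, and to 7 in gamma-delta cells when 2 UMIs were asked for. In all, 9 comparisons between libraries were not run under a changed gate or filter, since a sum had under 20 cells. Class sums of 20 to 66 cells limit what NK, gamma-delta and Pdgfra-Cre CD4 cells can show.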
